A study of Mus musculus with 12 samples.

Results

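Mitochondrial ribosomal proteins, the nuclear-encoded proteins of the ribosome that works inside mitochondria, were followed in haematopoietic stem cells (HSCs) sorted from mouse bone marrow. The members were all genes whose symbol starts with Mrpl or Mrps and a number, and whose probe set, the group of oligonucleotides that reads a transcript, carried exactly 1 symbol. This gave 76 of the 18193 genes on the array, 47 named Mrpl for the large subunit and 29 named Mrps for the small subunit, each read by its brightest probe set. All 76 were among the 12083 genes tested, which lay above the median signal of their array on at least 3 of the 12 arrays, and 55 did so on all 12. Mrpl30 and Mrpl53 were only on probe sets with several symbols and were left out.

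The 4 groups, each of 3 samples labelled biological replicates, were NrasG12D/+ GFPhigh, NrasG12D/+ GFP-, wild-type GFPhigh and wild-type GFP- HSCs. NrasG12D/+ is a heterozygous oncogenic form of Nras, a small GTPase, and is written Nras below. Per the labels the GFPhigh cells were quiescent and the GFP- cells cycling, and all the mice, wild-type ones included, had doxycycline in their water for 6 weeks and were followed for 12 weeks more. Such a label is switched on by doxycycline and thinned out by division. The sources used here do not give the ages of the mice, the source of the GFP label, what activated the Nras allele or whether animals were pooled. The values are MAS5 signals, linear intensity units scaled to the same array mean, and a fold change is a difference of log2 signals.

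The mitochondrial ribosome translates the few messages that mitochondrial DNA encodes, all of them for subunits of the oxidative phosphorylation complexes. Its RNAs come from mitochondrial DNA, while its proteins are made in the cytosol and imported, so the ribosome depends on both genomes. The large subunit forms peptide bonds and the small subunit reads the message. HSCs at rest are known for relying on glycolysis more than on oxidative phosphorylation, and for low rates of protein synthesis.

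Many starts of these genes hold the core letters of motifs of factors known for controlling nuclear genes of mitochondria, and the sequences are shown because the rule did not use them. RefSeq on GRCm38.p6 gave 73 windows for 67 of the 76 members, each of 300 bases, 250 before and 50 after a start. Those not matched were Mrpl13, Mrpl15, Mrpl19, Mrpl38, Mrpl4, Mrpl54, Mrps28, Mrps34 and Mrps35. Below, 150 bases around the start of 4 members are printed 5′ to 3′ on the plus strand, 120 before and 30 after. Mrpl52 (chr14:54426789-54426938) and Mrpl9 (chr3:94443216-94443365) had the lowest p of any member in the comparisons that follow. Mrps18a (chr17:46110884-46111033) holds all 3 of the first motifs, and Mrps11 (chr7:78783011-78783160) shares its start region with Mrpl46. Capitals mark TGCGCA, the core of the NRF1 site, CCGGAAG, a core bound by ETS factors such as GABP, and ATGGCGG, the core of the YY1 site, on either strand, so that CTTCCGG and CCGCCAT are the last 2 read from the other strand.
Mrpl52: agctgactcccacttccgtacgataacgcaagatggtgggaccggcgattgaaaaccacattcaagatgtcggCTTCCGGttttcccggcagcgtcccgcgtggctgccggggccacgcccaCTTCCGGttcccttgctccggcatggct
Mrpl9: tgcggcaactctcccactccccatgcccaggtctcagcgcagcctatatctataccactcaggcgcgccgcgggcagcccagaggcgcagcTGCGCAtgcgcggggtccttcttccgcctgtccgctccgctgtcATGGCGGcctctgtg
Mrps18a: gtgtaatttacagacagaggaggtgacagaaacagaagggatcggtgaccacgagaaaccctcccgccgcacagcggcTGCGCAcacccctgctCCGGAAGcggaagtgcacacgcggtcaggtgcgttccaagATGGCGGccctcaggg
Mrps11: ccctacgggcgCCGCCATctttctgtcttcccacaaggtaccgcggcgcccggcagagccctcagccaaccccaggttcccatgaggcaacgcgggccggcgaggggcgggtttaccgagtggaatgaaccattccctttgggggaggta

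Over both strands of the 300-base windows, TGCGCA was in 22 of the 73 members' windows (30.1%), against 7.76% of all 32851 windows in the table. CCGGAAG was in 25 (34.2% against 8.86%) and ATGGCGG in 12 (16.4% against 4.05%). Over the 18037 windows of the other genes on the array, these shares were 10.9%, 12.9% and 5.87%, in the same order. A window with several motifs was counted under each, and 46 windows (63%) held at least 1 of these 3, against 18.1% of all windows and 25.6% of those of the other array genes. The TATA box, TATAAA, was in 5 members' windows (6.85% against 13.6%), CCAAT in 29 (39.7% against 37.4%) and CACGTG, the E-box that MYC binds, in 7 (9.59% against 7.15%), with 9.78%, 37.4% and 8.72% among the other array genes. The members' windows had a median GC content of 58.7% and 7 CpG per 100 bases, against 52.7% and 2.33 over all windows and 58.3% and 5.33 over those of the other array genes. The first 3 motifs are themselves rich in G and C, so their counts and the GC content are not separate measures. For 25 of the 67 members (37.3%), another gene started on the opposite strand within 1000 bases upstream. Over all 27025 genes with windows, on the array or not, 12.3% had such a neighbour. The share among array genes alone was not taken. Mrpl46 and Mrps11 are such a pair of members, with starts 42 bases apart. Mrps12 is paired with Sars2, the mitochondrial seryl-tRNA synthetase, at 147 bases, and Mrpl43 with Twnk, the helicase that unwinds mitochondrial DNA, at 116 bases. A motif here is a match of letters and not a measured binding site.

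The arrays differed in control probe sets and in evenness. The ratio of 3′ to 5′ signal of Gapdh was 7.28, 2.83 and 5.7 in Nras GFPhigh samples and 2.57 to 4.48 in the other samples. The CreX control read 28340, 26505 and 15416 in Nras GFPhigh samples and 9325 to 17345 in the other samples. The part of these differences in the members' values was not tested. Evenness here means how close a sample lay to its group's means over all genes. Nras GFPhigh replicates 1 and 2, Nras GFP- replicate 1 and wild-type GFPhigh replicate 2 had array weights of 0.403, 0.503, 0.308 and 0.522, against 0.903 to 2.46 for the other 8 (limma's arrayWeights, in which 1 is average). These 4 are called the uneven arrays, though a low weight reads only distance from the group's means, whatever its source. Leaving them out keeps 1 Nras GFPhigh sample, replicate 3, so values without them rest on that sample for this group. Xist, made from the inactive X chromosome of females, read 91.8 to 205.1 in replicate 3 of the groups and 5773 to 11481 in replicates 1 and 2, and the Y-linked Eif2s3y ran the other way. Of the HSC markers 7 of 9 were on the array, none of them at 0, with summed signals of 34926 to 44204 in Nras GFPhigh, 24361 to 31089 in Nras GFP-, 30037 to 38514 in wild-type GFPhigh and 24473 to 28775 in wild-type GFP- samples. Of the granulocyte markers 10 of 12 were on the array, with sums of 6017 to 57327 in Nras GFPhigh, 4292 to 5071 in Nras GFP-, 957 to 12501 in wild-type GFPhigh and 2505 to 13229 in wild-type GFP- samples. Lymphoid marker sums reached 2152 in Nras GFPhigh samples and 245, 427 and 242 in Nras GFP-, wild-type GFPhigh and wild-type GFP- samples. The highest sums of endothelial and stromal, erythroid, and monocyte and macrophage markers, 7393, 11882 and 11032, were all in Nras GFPhigh samples, and the highest of megakaryocyte markers, 4630, in an Nras GFP- sample. These are bulk samples, in which fewer cells of a type and less RNA per cell cannot be told apart, and the part of other cells in the members' values was not tested.

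On each array, the members were summarised by the median of their log2 signals after each gene's own mean over the 12 arrays was taken off. This score was -0.05 ± 0.15 in Nras GFPhigh, -0.09 ± 0.61 in Nras GFP-, 0.16 ± 0.15 in wild-type GFPhigh and 0.37 ± 0.03 in wild-type GFP- samples (SD, n = 3 each). The single scores were -0.23, 0.05 and 0.03 in Nras GFPhigh, -0.77, 0.07 and 0.42 in Nras GFP-, 0.33, 0.07 and 0.08 in wild-type GFPhigh and 0.38, 0.38 and 0.33 in wild-type GFP- samples. The wild-type GFP- samples lay close together, and Nras GFP- samples spanned the whole range of the series. Nras GFP- replicate 1, an uneven array, was the lowest of the 12 arrays for 27 of the 76 members (35.5%), against 20.5% of all genes, and the highest for 11 (14.5%), against 13.1% of all genes. On that array the members named Mrpl had a score of -1.06 and those named Mrps of 0.05, while all genes had -0.2. Nras GFPhigh replicate 1, also uneven, was the lowest for 17 members (22.4%), against 16.8% of all genes. The plot of members by array shows the spread widening on these arrays. Nras GFP- replicate 3, with the highest score of the series, was the highest array for 11 members (14.5%), against 4.06% of all genes.

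**Figure D1:**
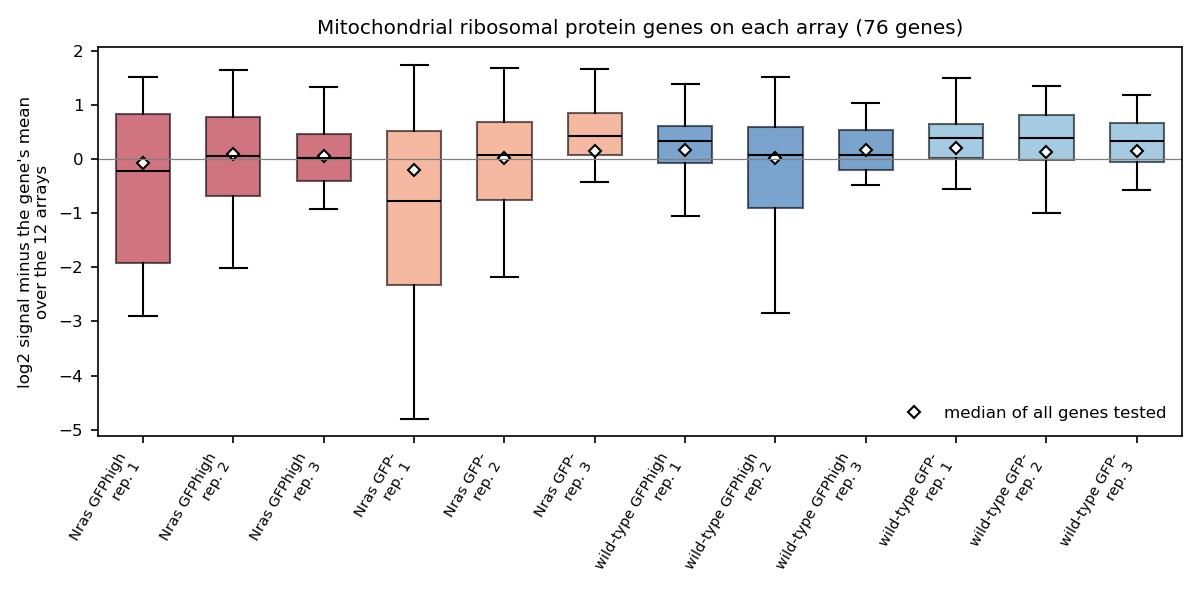
Log2 signal of the 76 members on each array, less each gene's mean over the 12 arrays (boxes: quartiles and median, whiskers: 5th to 95th percentile), with the median of all 12083 genes tested as diamonds. The members' median was lowest, at -0.77, on Nras GFP- replicate 1 and between 0.33 and 0.38 on the wild-type GFP- arrays.

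The members varied within a group about as much as other genes. The pooled SD of a member within groups had a median of 1.08 on the log2 scale, against 1.04 for all genes tested, and ran from 0.25 for Mrpl9 to 2.67 for Mrpl32. Mrpl32, a large-subunit protein that the m-AAA protease of mitochondria matures, had signals of 2.6, 839.7 and 679.4 in Nras GFPhigh, 74.3, 1354 and 1383 in Nras GFP-, 758.2, 643.4 and 1160 in wild-type GFPhigh and 869.3, 841.3 and 567.5 in wild-type GFP- samples. Its lowest 2 values were on the uneven replicate 1 of both Nras populations, and the other 10 lay within 567.5 to 1383. Mrpl39, the brightest member by mean log2 signal, read 11938, 4428 and 3432 in Nras GFPhigh, 2596, 4062 and 3841 in Nras GFP-, 3331, 4651 and 3402 in wild-type GFPhigh and 2679, 4816 and 2963 in wild-type GFP- samples. Apart from the first Nras GFPhigh array its groups overlapped. Mrpl14, the dimmest member, was above the array median on 4 arrays, and read 10.6, 87.6 and 37.3 in Nras GFPhigh, 17.6, 66.7 and 47.7 in Nras GFP-, 123.2, 111.2 and 40.8 in wild-type GFPhigh and 45.8, 127.3 and 49.7 in wild-type GFP- samples. Brightness differs between probe sets for reasons other than RNA amount, so these names give no order of levels among the genes.

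**Figure D2:**
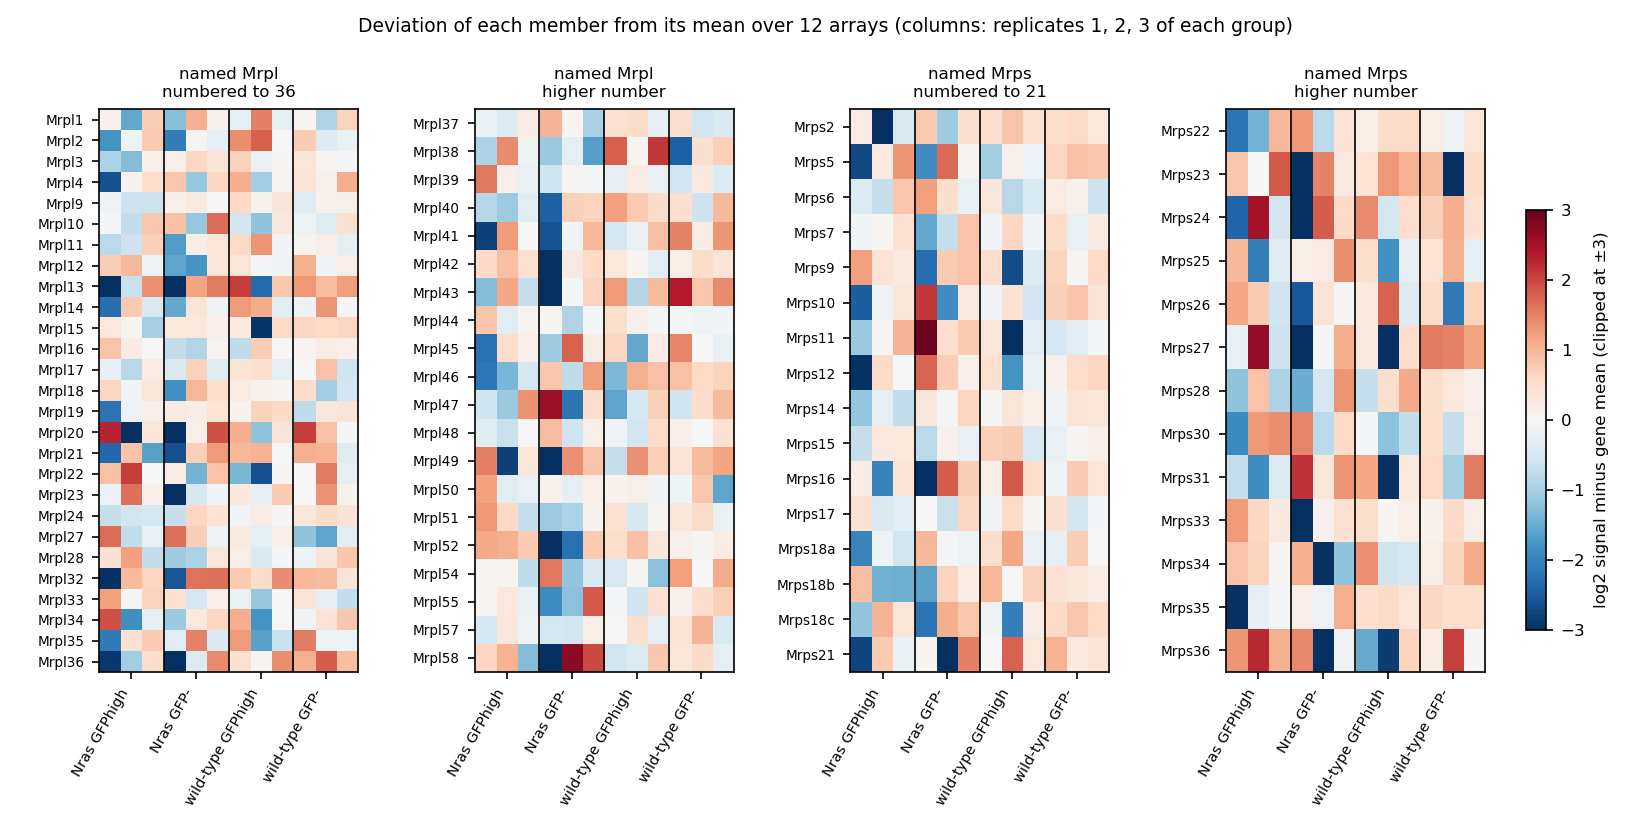
Log2 signal of each of the 76 members less its mean over the 12 arrays, in 4 panels by name and number, with replicates 1, 2 and 3 of each group as columns (colours are clipped at 3 either way). The deepest blues lie mostly in Nras GFP- replicate 1, the lowest array for 27 members, and in Nras GFPhigh replicate 1, the lowest for 17.

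Averaged over both genotypes, the GFPhigh cells, which keep the label because they divide seldom, had no member that differed from the GFP- cells by the test. None of the 76 passed an adjusted p of 0.05, as none of all genes tested did (0% of 12083), by limma with Benjamini-Hochberg adjustment over all genes. The lowest adjusted p of a member was 0.494. At an unadjusted p under 0.05, 1 member was higher and 1 lower, while 4.36% of all genes were higher and 4.51% lower. The members' log2 fold changes had a median of -0.084, with 33 above 0 and 43 below, against a median of 0.018 over all genes. Centring each array on its median put 51 below 0, with the median of all genes at -0.151 and that of the members -0.101 from it, the same distance as without centring, which shifts all genes alike. The half-width of a member's 95% confidence interval had a median of 1.33 on the log2 scale, so differences smaller than that were mostly not detectable with these arrays. These intervals are not adjusted for the number of genes. A call at the adjusted threshold needs a larger difference for the same spread, so 1.33 is not the limit of detection.

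The role groups go by symbol, so those named Mrps also hold Mrps18a and Mrps30, which sit in the large subunit, and Mrps36, which is not a ribosomal protein. The members named Mrps and numbered to 21, mostly named after bacterial counterparts, had the lowest median of the 4 role groups for GFPhigh minus GFP-, -0.413, with 12 of 16 below 0. The 13 named Mrps of higher number, mostly without a bacterial counterpart, had a median of -0.105 with 7 below 0. Among those named Mrpl the median was -0.106 for the 27 numbered to 36, with 16 below 0, and 0.109 for the 20 of higher number, with 8 below 0. Members of a role group share arrays, and the differences between role groups were not tested.

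Mrpl52, a large-subunit protein with no bacterial counterpart, had the lowest p of all members for the label. Its signals were 5159, 4913 and 4000 in Nras GFPhigh, 182.4, 498.2 and 4006 in Nras GFP-, 3365, 4274 and 2984 in wild-type GFPhigh and 2583, 2406 and 2752 in wild-type GFP- samples. Nras GFP- replicates 1 and 2 were far below the other 10 samples, whereas Nras GFP- replicate 3 was at the level of the GFPhigh samples. The wild-type populations did not overlap, and the Nras ones did by the 4006 of Nras GFP- replicate 3. How many of all genes had groups without overlap is given below for each comparison within a genotype or population. The log2 difference of GFPhigh from GFP- was 1.58 ± 0.56 (SE) over both genotypes, with an unadjusted p of 0.0145 and an adjusted p of 0.494 by limma. In Nras cells alone it was 2.71 ± 0.79, with an adjusted p of 0.252. Without Nras GFP- replicate 3, Mrpl52 was the 1 member past the threshold, at 2.2 ± 0.3 over both genotypes (adjusted p = 0.0409), at 3.95 ± 0.45 in Nras cells (adjusted p = 0.00878) and at -3.1 ± 0.45 for Nras against wild-type GFP- cells (adjusted p = 0.0422). In these fits 3, 12 and 8 of the 12083 genes passed. The array left out, replicate 3, had a weight of 1.58, against 0.308 for Nras GFP- replicate 1, an uneven array. Without Nras GFP- replicate 1 instead, the same 3 differences of Mrpl52 were 1.08, 1.72 and -0.87. The mean over the probe sets of Mrpl52 gave 0.72 over both genotypes and 1.02 in Nras cells. Its 4 probe sets gave log2 differences of 2.71, 1.46, 1.71 and -1.81 for the label in Nras cells, so 1 of them ran the other way. Mrpl52 was among the members picked by name because an earlier result of these data had pointed to it.

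Mrpl38 and Mrps23 had the next lowest p among members higher in GFPhigh cells. Mrpl38, another large-subunit protein without a bacterial counterpart, was 1.44 ± 0.73 higher on the log2 scale (adjusted p = 0.603 by limma), and its signals of 32.9 to 275 in Nras samples and 18.8 to 450.6 in wild-type samples overlapped between populations. With the mean over its probe sets the difference was 0.06 over both genotypes and 0.43 in wild-type cells. Mrps23, of the small subunit, was 1.8 ± 1.07 higher (adjusted p = 0.661), with 1 sample near 18 in each GFP- group, 18.5 in Nras replicate 1 and 17.5 in wild-type replicate 2, and all others between 359 and 1289.

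Among the members lower in GFPhigh cells, Mrpl24, which lies near the exit of the peptide tunnel, had the lowest p. It read 1492, 1650 and 1677 in Nras GFPhigh, 1508, 3817 and 3233 in Nras GFP-, 2304, 2847 and 2372 in wild-type GFPhigh and 3090, 3547 and 3167 in wild-type GFP- samples. All 3 wild-type GFPhigh samples were below all 3 wild-type GFP- samples, and in Nras cells only GFP- replicate 1, an uneven array, overlapped the GFPhigh range. The log2 difference was -0.56 ± 0.26 (adjusted p = 0.563 by limma), and it ran from -0.77 to -0.42 over 24 alternative settings. Mrpl24 was read by 1 probe set. Mrps31 had -1.67 ± 0.77 and an adjusted p of 0.565, with 66.7 in the uneven wild-type GFPhigh replicate 2 and 203.6 to 3362 elsewhere. Mrps12, the counterpart of the bacterial protein at the decoding centre, had -1.31 ± 0.65 and an adjusted p of 0.594, with signals of 77.5, 874.6 and 602.6 in Nras GFPhigh, 2007, 995.1 and 664.1 in Nras GFP-, 820.3, 173.4 and 526 in wild-type GFPhigh and 665.1, 860.9 and 943.5 in wild-type GFP- samples. The 2 lowest of these were on uneven arrays.

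Within wild-type cells, no member and none of all genes passed (0%), and no member had an unadjusted p under 0.05 in either direction, against 1.05% of all genes higher and 1.15% lower. Of the 76 members 29 were above 0 and the median was -0.229, against -0.031 for all genes. Every member's adjusted p was 1. The lowest p values belonged to Mrpl22, which lines the peptide tunnel, at -1.74 ± 0.89 for GFPhigh minus GFP-, Mrpl15 at -1.31 ± 0.74, and Mrps27, a pentatricopeptide repeat protein of the small subunit, at -2.46 ± 1.43. Each of these had its lowest wild-type value, 111.9, 245.7 and 14.1, on wild-type GFPhigh replicate 2, an uneven array. Among those higher, Mrpl38 had 1.75 ± 1.03, Mrpl9 had 0.41 ± 0.26 and Mrpl27, which reaches towards the peptidyl transferase centre in bacteria, had 1.09 ± 0.77. Mrpl27 read 620.6, 429.8 and 571.7 in wild-type GFPhigh and 223.9, 171.1 and 409.4 in wild-type GFP- samples, which did not overlap. In wild-type cells 3 of the 76 members were higher and 5 lower with no overlap, against 641 and 702 of all 12083 genes.

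Within Nras cells, again no member and none of all genes passed (0%), and 2 members were higher and 4 lower at an unadjusted p under 0.05, against 6.2% and 5.97% of all genes. The median of the members was -0.152, with 35 above 0 and 41 below, against 0.082 for all genes, and centring the arrays put 52 below 0 (all genes then had -0.405). Beside Mrpl52, the member higher was Mrpl16 at 0.87 ± 0.39 (adjusted p = 0.401 by limma), with signals of 6551, 4206 and 3606 in Nras GFPhigh and 2178, 1956 and 3800 in Nras GFP- samples, which overlap. Mrpl23, found at the tunnel exit, had 1.85 ± 0.86 with an unadjusted p of 0.0502, and rested on 82.5 in Nras GFP- replicate 1 against 601.8 to 2617 in the other Nras samples.

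Mrpl3, Mrpl9, Mrps14 and Mrpl46 made up the 4 lower ones in Nras GFPhigh cells. For this label comparison 0 of the 76 members were higher and 6 lower with no overlap, against 810 and 750 of all 12083 genes. Mrpl3, which reaches close to the peptidyl transferase centre, read 854.9, 680.4 and 1838 in Nras GFPhigh and 1841, 2569 and 2214 in Nras GFP- samples, a log2 difference of -1.1 ± 0.46 (adjusted p = 0.38 by limma). The groups just miss each other, by 1838 in GFPhigh against 1841 in GFP-, and 4 probe sets of Mrpl3 gave -1.1, 0.35, -1.48 and 0.65. Mrps14 read 548.5, 1001 and 730.2 in Nras GFPhigh and 1555, 1173 and 1902 in Nras GFP- samples, with no overlap and -1.04 ± 0.45 (adjusted p = 0.395), but the mean over its probe sets turned the direction, to 0.16. Mrpl46 read 97.7, 170.2 and 309.1 in Nras GFPhigh and 769.8, 260.4 and 1054 in Nras GFP- samples, at -1.79 ± 0.82 (adjusted p = 0.411), and its groups overlapped. Mrps11, which shares the start region with Mrpl46, had 91.4, 204.7 and 404.1 in Nras GFPhigh and 1503, 285.9 and 342.3 in Nras GFP- samples, at -1.43 ± 1.03 (adjusted p = 0.601). The 2 genes of that pair had the same sign in this comparison and in wild-type cells, at -0.51 ± 0.82 for Mrpl46 and -0.79 ± 1.03 for Mrps11, and none of the 4 values passed. For Nras against wild-type cells of both populations their signs differed, at -0.91 ± 0.58 for Mrpl46 and 1.39 ± 0.73 for Mrps11.

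**Figure D3:**
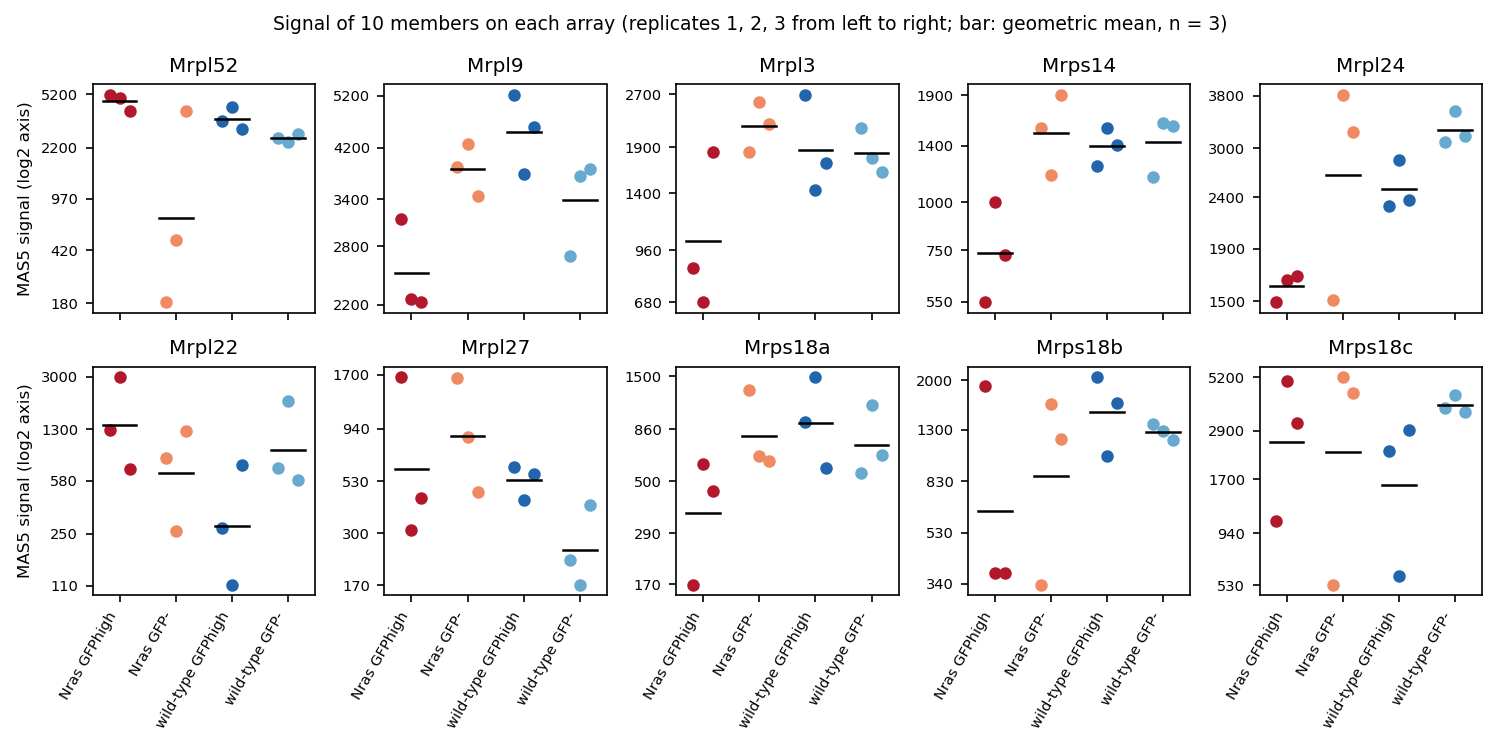
MAS5 signal (log2 axis, with a scale of its own for each gene) of 10 members in the 12 samples, with replicates 1, 2 and 3 from left to right and the geometric mean as a bar (n = 3 per group). Mrpl52 stood at 182.4 and 498.2 in Nras GFP- replicates 1 and 2 and at 2406 or more elsewhere, and for Mrpl9 the Nras GFPhigh samples were at 2225 to 3131, with 1 of the other 9 samples below 3131 (wild-type GFP- replicate 1 at 2693).

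The label effect in Nras cells less that in wild-type cells, the interaction, had no member past the threshold and no gene at all (0%), with a lowest adjusted p of 0.956 among members. At an unadjusted p under 0.05, 2 members were higher and 1 lower, against 2.43% and 2.25% of all genes. The median was -0.092 with 40 below 0, against 0.106 for all genes, and centring the arrays put 51 below 0 (all genes then had -0.532). Mrpl9, a large-subunit protein with a bacterial counterpart, had the lowest p, at -1.02 ± 0.37 (adjusted p = 0.956 by limma), as it was 0.62 ± 0.26 lower in GFPhigh than in GFP- Nras cells and 0.41 ± 0.26 higher in GFPhigh than in GFP- wild-type cells. Mrps36 had 4.63 ± 1.93 and Mrpl22 had 2.83 ± 1.26, with the same adjusted p. Mrps36 is now known as a subunit of the oxoglutarate dehydrogenase complex and not of the ribosome. The next were Mrpl52 at 2.27 ± 1.12, Mrpl3 at -1.13 ± 0.65 and Mrps14 at -1 ± 0.64. The half-width of the members' 95% intervals had a median of 2.65 here, so that few differences of label effect between genotypes could have been detected.

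**Figure D4:**
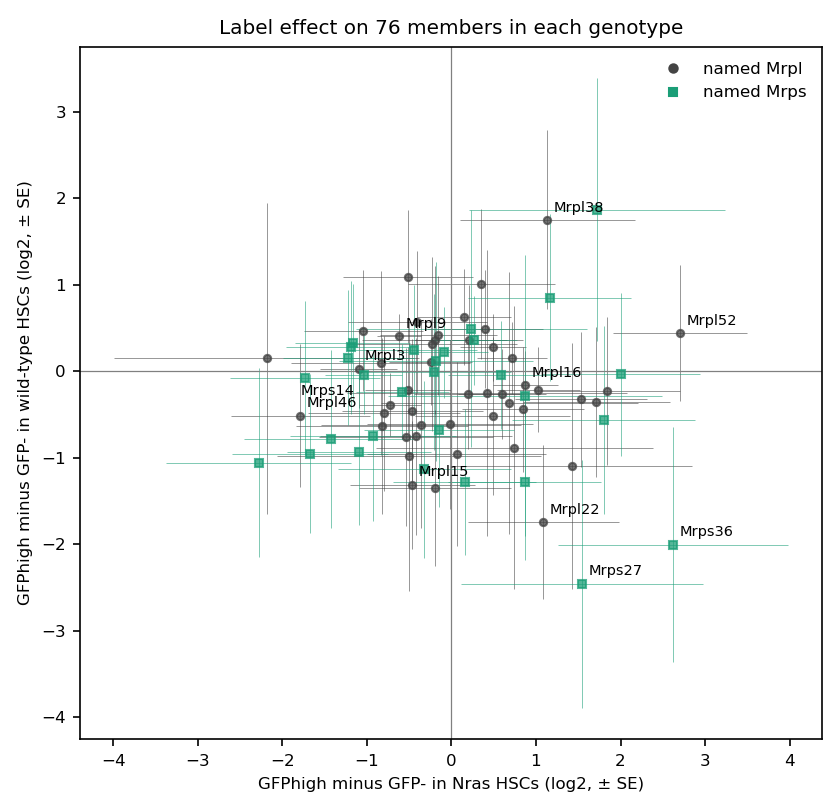
Log2 difference of GFPhigh from GFP- cells in Nras HSCs (horizontal) and in wild-type HSCs (vertical) for the 76 members, each with its SE, those named Mrpl as circles and those named Mrps as squares. Mrpl52 stands at 2.71 in Nras and 0.44 in wild-type cells, and Mrps36 at 2.62 and -2.

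For the genotype, averaged over both populations, no member passed, and 1 of all 12083 genes did (0.00828%). The members' lowest adjusted p was 0.628, and at an unadjusted p under 0.05 none was higher and 1 lower, against 2.66% and 5.12% of all genes. Of the 76 members 58 were below 0 in Nras cells, with a median log2 fold change of -0.354, while the median of all genes was -0.153. Centring each array on its median moved the median of all genes to 0.135 and left 43 members below 0. Centring shifts all genes alike, so under both the members' median was by construction -0.201 from that of all genes, with 51 of the 76 below it. After quantile normalization the members' median was -0.135 from that of all genes. Without the 4 uneven arrays, 3 of which are Nras arrays, the members' median was -0.116, or -0.045 from that of all genes. Then 39 of the 76 were below the all-gene value. That setting keeps only replicate 3 of Nras GFPhigh. With replicates 1 and 2 alone, which have high Xist and hold all 4 uneven arrays, the members' median was -0.586, with 62 below 0. That of all genes was then -0.198, so the members' median lay -0.388 from it, with 49 of the 76 below it. Sex and evenness are not separated in this setting.

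All 4 role groups had medians below 0 for the genotype, from -0.379 for those named Mrps and numbered to 21 to -0.307 for those named Mrpl of higher number, 17 of 20 of which were below 0. Mrpl36, a large-subunit protein with a bacterial counterpart, was the 1 member with an unadjusted p under 0.05, at -1.91 ± 0.84 (adjusted p = 0.628 by limma). It read 13.5, 49 and 143.9 in Nras GFPhigh, 9.8, 75.8 and 268 in Nras GFP-, 137.8, 106.8 and 262 in wild-type GFPhigh and 211.2, 353.1 and 188.7 in wild-type GFP- samples. Both of its lowest values were on uneven Nras arrays, and in each population Nras replicate 3 lay within the wild-type range. Mrpl43 had -1.99 ± 1.01 (adjusted p = 0.659), with 3 in Nras GFP- replicate 1 and 63.8 to 821.9 in the other 11 samples. Mrpl40 had -1.13 ± 0.58 (adjusted p = 0.668), at 427.4, 364.1 and 621.1 in Nras GFPhigh and 142.3, 1273 and 1231 in Nras GFP- samples, against 1823, 1334 and 1136 in wild-type GFPhigh and 1084, 508.9 and 1522 in wild-type GFP- samples. Of its Nras samples, GFP- replicates 2 and 3 and GFPhigh replicate 3 lay within the wild-type range over both populations. On the higher side, Mrps11 had 1.39 ± 0.73, Mrpl27 had 0.99 ± 0.54 and Mrpl33 had 0.65 ± 0.37, with adjusted p values of 0.668, 0.674 and 0.682.

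Among GFPhigh cells, no member and none of all genes passed for Nras against wild-type (0%), and 1 member was higher and 2 lower at an unadjusted p under 0.05, against 3.17% and 5.12% of all genes. The members' median was -0.265, with 44 of 76 below 0, and that of all genes -0.09. Mrpl9 had the lowest p, 0.00709, at -0.84 ± 0.26 (adjusted p = 0.475 by limma). Its signals were 3131, 2256 and 2225 in Nras GFPhigh and 5222, 3770 and 4582 in wild-type GFPhigh samples, with no overlap, and 3874, 4258 and 3438 in Nras GFP- and 2693, 3740 and 3855 in wild-type GFP- samples, which overlapped. Its 3 probe sets gave -0.84, -2.35 and -1.08, all lower in Nras GFPhigh cells, and the difference ran from -2.35 to -0.73 over 26 alternative settings, none of them past the threshold (lowest adjusted p = 0.287). Mrps2 read 1603, 146 and 1009 in Nras GFPhigh and 1941, 2472 and 1864 in wild-type GFPhigh samples, at -1.75 ± 0.78 (adjusted p = 0.589). Mrps35 read 42.9, 528.2 and 615.8 in Nras GFPhigh and 875.2, 938.3 and 811.6 in wild-type GFPhigh samples, at -1.86 ± 0.89 (adjusted p = 0.621). Both had no overlap, with the lowest value on an uneven Nras array. In this comparison 2 of the 76 members were higher and 6 lower with no overlap, against 619 and 890 of all 12083 genes.

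The members higher in Nras GFPhigh cells were led by Mrpl22, at 2.3 ± 0.89 (adjusted p = 0.551 by limma). It read 1286, 2970 and 695.2 in Nras GFPhigh and 272.4, 111.9 and 736.9 in wild-type GFPhigh samples, and 832, 262.7 and 1271 in Nras GFP- and 702.3, 2050 and 584.5 in wild-type GFP- samples, so that the groups overlapped in both populations. Mrps36 had 2.78 ± 1.36 (adjusted p = 0.633), at 683.7, 1305 and 570 in Nras GFPhigh and 95.8, 37.9 and 435.1 in wild-type GFPhigh samples, with no overlap. Mrpl33 had 1.08 ± 0.52 (adjusted p = 0.623). In these cells the granulocyte markers were at a summed 42954, 57327 and 6017 in Nras GFPhigh samples and 957 to 12501 in wild-type GFPhigh samples, and their part in the members' values was not tested.

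Among GFP- cells, again none of the members or of all genes passed (0%), and 1 member was higher and 2 lower at an unadjusted p under 0.05, against 0.968% and 3.42% of all genes. The median was -0.451 with 54 of 76 below 0, and -0.175 for all genes, but it was 0.155 with 31 below 0 when the arrays were centred on their medians (all genes 0.432), and 0.026 without Nras GFP- replicate 1. Mrpl27 was 1.8 ± 0.77 higher (adjusted p = 0.983 by limma), at 1634, 855.9 and 472.7 in Nras GFP- and 223.9, 171.1 and 409.4 in wild-type GFP- samples, which did not overlap. Mrps11 had 1.71 ± 1.03 and Mrps6 had 0.58 ± 0.55. The lower ones were Mrpl52 at -1.85 ± 0.79 (adjusted p = 0.983), given above, and Mrpl43 at -3.24 ± 1.42, with 3, 152.3 and 249.1 in Nras GFP- and 821.9, 279.7 and 420.5 in wild-type GFP- samples. Mrpl23, next in order, had -1.79 ± 0.86 with an unadjusted p of 0.0567. Among these GFP- cells 2 of the 76 members were higher and 5 lower with no overlap, against 492 and 812 of all 12083 genes.

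Mammals have 3 copies of the bacterial protein that gave Mrps18a, Mrps18b and Mrps18c their names, and they are known to sit in different places, Mrps18a in the large subunit despite its name. Mrps18a read 169.4, 601 and 451.7 in Nras GFPhigh, 1298, 648.3 and 619.9 in Nras GFP-, 926.9, 1484 and 572.4 in wild-type GFPhigh and 545, 1104 and 655.4 in wild-type GFP- samples. Its Nras populations did not overlap, the wild-type ones did, and the label differences were -1.17 ± 0.68 in Nras and 0.33 ± 0.68 in wild-type cells, neither past the threshold. Mrps18b read 1899, 373.6 and 371.8 in Nras GFPhigh, 337.6, 1628 and 1199 in Nras GFP-, 2050, 1033 and 1645 in wild-type GFPhigh and 1369, 1285 and 1186 in wild-type GFP- samples. Its Nras samples ran from 337.6 to 1899, with low and high values in both populations, and its difference of Nras from wild-type was -0.9 ± 0.53 (adjusted p = 0.694 by limma). Mrps18c read 1072, 5004 and 3148 in Nras GFPhigh, 534.9, 5209 and 4380 in Nras GFP-, 2327, 588.9 and 2925 in wild-type GFPhigh and 3708, 4303 and 3567 in wild-type GFP- samples. Replicate 1 was the low one in both Nras populations, and the 3 wild-type GFPhigh samples lay below the wild-type GFP- samples, at -1.28 ± 0.85 (adjusted p = 1).

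Some members are known for work beyond the ribosome. Mrpl12, of the stalk that recruits translation factors, binds the mitochondrial RNA polymerase in human cells. It read 264.8, 311 and 145.1 in Nras GFPhigh, 52.7, 46 and 203 in Nras GFP-, 203.9, 153.8 and 146.6 in wild-type GFPhigh and 329.1, 149.1 and 182.9 in wild-type GFP- samples. Nras GFP- replicates 1 and 2 were the lowest, as for Mrpl52, and the label difference in Nras cells was 1.53 ± 0.78 (adjusted p = 0.455 by limma). Mrpl41, linked to BCL2 and cell death in human cells, read 129, 2185 and 913.2 in Nras GFPhigh, 147, 851.9 and 1801 in Nras GFP-, 633.4, 777.5 and 1694 in wild-type GFPhigh and 2552, 1061 and 2250 in wild-type GFP- samples. Replicate 1 was again low in both Nras populations. Mrps30, a death-associated protein that sits in the large subunit, read 241.9, 2235 and 2409 in Nras GFPhigh, 2501, 526.8 and 1353 in Nras GFP-, 881.9, 390.8 and 544.4 in wild-type GFPhigh and 1317, 555.6 and 1046 in wild-type GFP- samples. Its ranges overlapped in every pair of groups, and for Mrpl41 and Mrps30 the label difference over both genotypes was -0.45 ± 0.75 and -0.41 ± 0.63.

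Different probe sets of a member often ran in different directions. Of the 76 members 34 had 1 probe set and 42 had several, up to 8 for Mrpl15, and 35 had several above the filter. Among these 35, all probe sets of the gene had the same sign in 18 for GFPhigh against GFP- over both genotypes and in 22 for Nras against wild-type over both populations. For 32 of the 76 members, the probe set used has a suffix that marks a match to several transcripts.

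Over the 12 arrays, the genes whose log2 signal was most like the members' score were Ube2n, Srsf9, Cep20, Dcun1d5 and Lman2, none of them a member, with Pearson r of 0.959, 0.957, 0.951, 0.94 and 0.937. These are given as a description, since all values come from the same arrays and share their evenness. The members' own r with the score had a median of 0.33, from -0.76 for Mrpl27 to 0.92 for Mrpl43. Of the 76 members 56 were above 0, while the median over all genes was 0.12. The score is the median of these same 76 members, so their r with it is favoured by construction. The values 0.33 and 0.12 therefore cannot show whether the members vary together more than other genes do. Mrpl43, with its 3 in Nras GFP- replicate 1, and Mrpl27, with 1634 there, follow and oppose the score's lowest array.

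Other genes of mitochondrial translation were read from lists that were put together with earlier results of these data known, and none of their genes passed an adjusted p of 0.05. The list of translation factors holds mostly genes that start, extend and release the chains made by the mitochondrial ribosome. It also holds Lrpprc and Slirp, which are not such factors. All 12 genes of this list were below 0 for GFPhigh minus GFP- over both genotypes. Their median was -0.748, against 0.018 for all genes. Without the 4 uneven arrays, which keeps only replicate 3 of Nras GFPhigh, 6 of the 12 were below 0 and the median was -0.001. Tufm, the elongation factor that brings aminoacyl-tRNA to the ribosome, read 592.5, 178.3 and 161.2 in Nras GFPhigh, 1127, 451.4 and 806.1 in Nras GFP-, 417, 286.7 and 415.4 in wild-type GFPhigh and 979.7, 844.4 and 921.3 in wild-type GFP- samples. The wild-type populations did not overlap and the Nras ones did, and the difference was -1.42 ± 0.48 (adjusted p = 0.468 by limma). Tsfm, its nucleotide exchange factor, had -1.48 ± 0.64 for the label (adjusted p = 0.551) and -2.37 ± 0.64 for Nras against wild-type over both populations (adjusted p = 0.579). It read 19, 10.6 and 8.5 in Nras GFPhigh, 22.9, 123.1 and 56.2 in Nras GFP-, 186, 69.6 and 79.1 in wild-type GFPhigh and 88.6, 280.5 and 206.6 in wild-type GFP- samples. Its Nras GFPhigh samples were the 3 lowest of the 12. Of its Nras signals 5 of 6 lay below the median of their array, which was 44 to 129.6 over the 12 arrays, and a pseudocount of 100 gave -0.49 for the label and -0.83 for the genotype. For the genotype 10 of the 12 genes of this list were below 0, with a median of -0.488, and Slirp, which binds mitochondrial messages, had -1.52 ± 0.74.

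Of the 23 assembly and rRNA modification factors 17 were below 0 for the label, with a median of -0.315. Mterf4, which guides an rRNA methyltransferase to the large subunit, had 1.55 ± 0.55, and Mrm2, a methyltransferase of the large rRNA, had -1.17. For the genotype 12 of the 23 were below 0, with a median of -0.034, which was -0.334 without the uneven arrays. Rpusd4, a pseudouridine synthase, had -1.16 ± 0.51 for the genotype and Malsu1, an assembly factor of the large subunit, -1.2 ± 0.58. The label difference of Mrm2 was -0.19 without the uneven arrays, and the genotype difference of Malsu1 was -0.28 with the mean over its probe sets. The 19 genes of tRNA charging were 16 mitochondrial aminoacyl-tRNA synthetases and Qrsl1, Gatb and Gatc, the subunits of the glutamyl-tRNA amidotransferase. For the label 6 of the 19 were below 0, with a median of 0.18, but without the uneven arrays 10 were, with a median of -0.02. Rars2, the arginyl-tRNA synthetase, had -1.48 ± 0.54 for the label, and Qrsl1 had -1.66 ± 0.89, which was -0.34 without the uneven arrays. For the genotype 15 of them were below 0, with a median of -0.478, and Fars2 and Mars2, the phenylalanyl- and methionyl-tRNA synthetases, had -1.43 ± 0.87 and -1.34 ± 0.86. Without the uneven arrays 10 of the 19 were below 0 for the genotype, with a median of -0.16. The 15 genes of mitochondrial DNA transcription, processing and replication had 8 below 0 for the label (median -0.13) and 13 for the genotype (median -0.64), with Tfb2m, a transcription initiation factor, at -1.18 ± 0.5 for the genotype. Supv3l1, an RNA helicase, had -1.77 ± 0.85 for the label (-0.34 with the mean over its probe sets), and Ssbp1, which binds single-stranded mitochondrial DNA, had 0.28 ± 0.11 for the label and 0.23 ± 0.11 for the genotype. Without the uneven arrays the medians of this list were -0.355 and -0.312. The all-gene median for the genotype was -0.153, and 3 of the 4 uneven arrays are Nras arrays.

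Of the 10 regulators of mitochondrial biogenesis 8 were below 0 for the label, with a median of -0.41, which was -0.072 without the uneven arrays. For the genotype 7 were above 0, with a median of 0.165. Pprc1, a coactivator of the family of PGC-1, had signals of 349.5, 584.4 and 287.1 in Nras GFPhigh, 1881, 3209 and 1350 in Nras GFP-, 370.3, 470.2 and 868.2 in wild-type GFPhigh and 1101, 1977 and 479.4 in wild-type GFP- samples. Its Nras populations did not overlap, its wild-type ones did, and the label difference was -1.65 ± 0.47 (adjusted p = 0.416 by limma). Myc, a driver of ribosome production, had -0.62 ± 0.21 for the label (adjusted p = 0.464). Ppargc1a, which encodes PGC-1α, had 2.69 ± 1.2 for Nras against wild-type (adjusted p = 0.631), and rested on 2978 in the uneven Nras GFP- replicate 1, against 2.7 to 293.5 elsewhere. Gabpb1, a subunit of GABP, had -0.3 ± 0.28 for the genotype. A further list holds ribosome proteins known under other names, of which 6 were on the array, among them the members Mrpl57 and Mrpl58. In that list Dap3, a GTP-binding protein of the small subunit, had -0.77 ± 0.35 for the label (adjusted p = 0.557) and read 1625, 456.2 and 1052 in Nras GFPhigh and 2287, 2480 and 2267 in Nras GFP- samples, which did not overlap, and 2215, 1998 and 1724 in wild-type GFPhigh and 2796, 2931 and 1379 in wild-type GFP- samples, which did. Chchd1, another small-subunit protein, had 0.97 ± 0.87 for the label, and Ptcd3, a pentatricopeptide repeat protein of the small subunit, 0.17 ± 0.24 for the genotype. For the genotype Dap3 had -0.52 ± 0.35 and Mrpl57 -0.39 ± 0.45. The median of the 6 was -0.024 for the label, with 4 below 0, and -0.085 for the genotype. Without the uneven arrays all 6 were below 0 for the label, with a median of -0.462, and the genotype median ran from -0.432 to 0.252 as single arrays were left out (without Nras GFP- replicates 2 and 1).

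**Figure D5:**
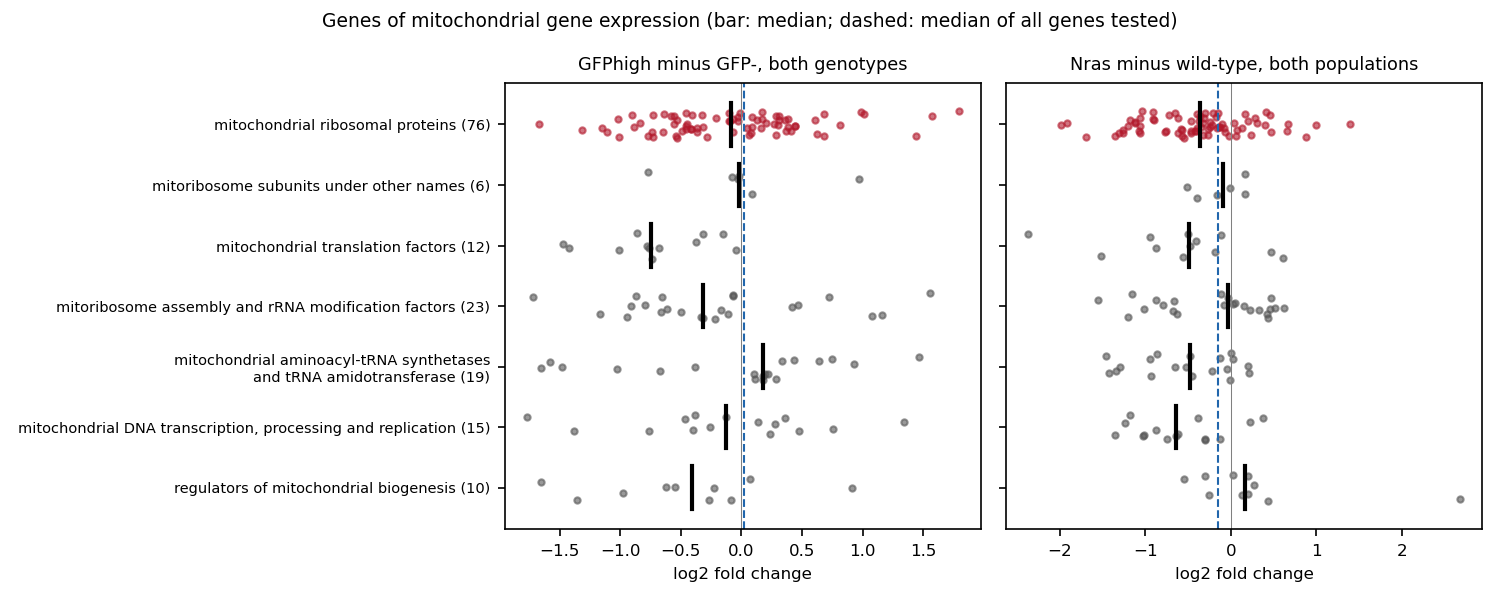
Log2 fold change of the 76 members and of 6 lists of genes of mitochondrial gene expression for GFPhigh minus GFP- (left) and Nras minus wild-type (right), with the number of genes in brackets, each gene as a point and the median as a bar, and the median of all genes tested as a dashed line. The translation factors lie at or left of -0.044 for the label, with a median of -0.748, while the members spread on both sides with a median of -0.084.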

How the data were processed

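Total RNA of flow-sorted HSCs was hybridised to 1 Affymetrix array per sample, 12 in all. The deposited values are intensity. They are linear MAS5 signals, per the submitters' processing notes, which name no version, and detection calls were not used here. Of 45101 probe sets, 64 controls, 932 with several symbols and 9160 without a symbol were left out. Signals were taken to log2 with 3 values at 0 set to a floor of 0.1. Each gene was read by the probe set with the highest mean over all arrays, and tested if above its array's median on at least 3 arrays. One limma model with a mean per group and an intensity trend was fitted over all 12083 genes and gave 7 comparisons, with two-sided p values, Benjamini-Hochberg adjustment over all genes and a threshold of 0.05. SE is limma's moderated standard error, and the number of arrays limits the precision. P values measure the spread between the samples, labelled biological replicates. The model had no term for sex or replicate number, so that spread includes any such differences.

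Named members were, per comparison and direction, the 3 of smallest p, with the brightest, the dimmest and the most variable member, the Mrps18 copies, Mrpl12, Mrps12, Mrpl41, Mrps30 and Mrpl52. From each list the 2 genes of smallest p were taken for both averaged comparisons, with Ptcd3 added as the next that is not a member. Mrpl46, with its partner Mrps11, was described after their values were seen. The members, lists and rule were chosen with earlier results of these data known. Alternatives were array weights, filters at the 75th percentile or none, no trend, a replicate block, other probe set rules, pseudocounts of 15.5 and 100, median centring, quantile normalization, left-out arrays and an adjusted p of 0.1. The fit was also run on simulated data in which every array had the same spread. The real arrays did not, so that run cannot vouch for the fit on uneven arrays. Gene names came from the platform annotation, and promoters and starts from RefSeq (GRCm38.p6). The fits used limma 3.58.1 with statmod 1.5.0 in R 4.3.3. Promoters and plots used pandas 2.3.3, numpy 2.4.6 and matplotlib 3.10.9 under Python 3.11.15.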

Additional observations from a re-analysis of the deposited data

How the results depend on the processing

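No member passed the adjusted threshold under any of the alternatives, with 1 exception: without Nras GFP- replicate 3, 1 member, Mrpl52, passed for GFPhigh against GFP- over both genotypes (log2 difference 2.2), for the same in Nras cells (3.95) and for Nras against wild-type GFP- cells (-3.1), so the count in these 3 comparisons ran from 0 to 1 as arrays were left out. In these fits 3, 12 and 8 of all 12083 genes passed. Without Nras GFP- replicate 1, an uneven array, the same 3 differences of Mrpl52 were 1.08, 1.72 and -0.87. In 5 comparisons the members' median moved by more than the SD of the arrays' member scores within the groups compared, pooled over these groups, and the cause was not tested. For GFPhigh against GFP- in Nras cells the median of -0.152 became -0.639 with median centring and ran from -0.441 to 0.323 as single arrays were left out (0.323 without Nras GFP- replicate 3). In wild-type cells the median of -0.229 became -0.115 with array weights, -0.025 without the uneven arrays and -0.078 with median centring, and ran from -0.263 to -0.025 by left-out array (the last without wild-type GFPhigh replicate 2). For Nras against wild-type it became 0.026 without the uneven arrays and 0.155 with median centring in GFP- cells, with -0.715 to 0.026 as single arrays were left out, and -0.493 to -0.087 in GFPhigh cells. The interaction's median became -0.73 with median centring, 0.249 with replicates 1 and 2 only, and -0.277 to 0.421 by left-out array (0.421 without Nras GFP- replicate 3). Counts at an unadjusted p under 0.05 moved by over 1.5 times, most for the lower members in Nras against wild-type GFP- cells, which were 2 and ran from 0 to 12, and for the higher ones in the interaction, which were 2 and ran up to 10, both without Nras GFP- replicate 3.

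Differences of single genes, none of them past the threshold, turned their sign. For Nras against wild-type over both populations, Mrpl41 (-1.08) became 0.087 with the mean over probe sets, Mrps12 -0.134 with array weights and -0.064 without the uneven arrays (-0.266 to 0.608 by left-out array), and Mrps18c 0.152, 0.292 and 0.263 with array weights, without the uneven arrays and with median centring (-0.382 to 0.502). For the label over both genotypes, Mrps18b became 0.159 with replicates 1 and 2 only (-0.488 to 0.129), Mrps30 0.556 without the uneven arrays (-0.714 to 0.13 by left-out array), and Mrpl41 ran from -0.959 to 0.129, the last 2 upper values without Nras GFPhigh replicate 1. The mean over probe sets turned Mrps14 (-1.04) to 0.163 in Nras cells and to 0.519 in the interaction, and leaving out shared probe sets turned Mrps6 to -0.109 in Nras against wild-type GFP- cells. Outside the members, leaving out the uneven arrays turned Chchd1 (0.97) for the label to -0.625 and, for the genotype, Fars2 (-1.43) to 0.241, Gabpb1 to 0.065 and Ptcd3 to -0.117, and Ssbp1 became -0.826 with the mean over probe sets and -0.072 with quantile normalization.

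Each replicate number occurs once in every group, so a replicate block cannot change a fold change, only its SE and p. The members' medians, -0.084 for the label and -0.354 for the genotype, were therefore fixed in advance and are no check. With the block 0 members passed in each of the 7 comparisons. Of 18 pairs of samples with the same number in different groups, 3 had deviations correlated above 0.1 (-0.044 to 0.152), while 11 of 12 samples correlated best with their own number. The median half-width of 1.33 to 2.65 on the log2 scale, of intervals not adjusted for the number of genes, limits what could be detected.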
